A study of Mus musculus with 3 samples.

Results

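Cycling keratinocytes are the skin epithelial cells caught in the act of copying their DNA or dividing. They were taken from single-cell RNA-seq of mouse back skin by a rule on transcripts. A cell barcode needed at least 500 genes, under 15% of its UMIs (unique molecular identifiers, each 1 captured transcript) from mitochondrial genes, at least 0.3% of its UMIs from Krt5, Krt14 and Krt15 together, and no UMI of Ptprc (the leukocyte surface protein CD45) or Col1a1 (fibroblast collagen). It also needed at least 1 UMI of at least 4 of the 8 cycle genes Mki67, Top2a, Cdk1, Birc5, Ube2c, Pclaf, Tk1 and Rrm2. The rule found 988 cells among 16233 keratinocytes defined by the same keratin, Ptprc and Col1a1 limits, and among 27951 barcodes in all. The other 15245 keratinocytes serve as the comparison within each library.

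The study deleted Piezo1, which encodes a stretch-activated cation channel, in adult epithelium with a tamoxifen-inducible Cre driven by the keratin 5 promoter. All mice were C57BL/6, carried K5-Cre-er, and received tamoxifen from P48 to P52. The control library came from a K5-Cre-er/Piezo1fl/+/Tdfl/+ mouse at P62, so it carried 1 floxed Piezo1 allele and the same Cre. The 2-week knockout was K5-Cre-er/Piezo1fl/fl/Tdfl/+ at P62 and the 3-week knockout K5-Cre-er/Piezo1fl/fl/Tdfl/fl at P71. Each group is 1 library, and the labels do not say how many animals went into it, so no difference between groups could be tested. The 3-week library also differs from the control by 9 days of age and by its Td genotype, which cannot be told apart from time since deletion. Intervals below are exact 95% intervals for counting error only and hold nothing on the spread between mice. Those on CPM and its ratios count each UMI as independent, so they also leave out the spread between cells and can be too narrow.

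The keratinocyte cycle is best known from the basal layer of the epidermis and the base of the hair follicle, where cells attached to the basement membrane divide and their daughters move up or along the follicle as they differentiate. Origins are licensed with the MCM helicase before S phase. In S phase, DNA is copied and replication-dependent histones are made to package it. In G2 and M phase, cyclin B and its kinase, Plk1 and the Aurora kinases bring about chromosome condensation, spindle assembly and division. Genes of the first wave are classically controlled by E2F factors, and those of the second by complexes acting through a promoter element called CHR (cell cycle genes homology region), often with CCAAT boxes.

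Both promoter elements can be read in genes that marked the cells here. The promoters below are shown because Ccnb2 (a B-type cyclin), Cdc20 (an activator of the anaphase-promoting complex) and Plk1 (the mitotic Polo kinase) are mitosis genes whose values by library are given below, while Mcm5 and Mcm3 (helicase subunits) represent the replication genes. Each runs 5′ to 3′ on the gene's own strand from 250 bases before to 50 after the start, from RefSeq on GRCm38.p6. Capitals mark CHR (TTTGAA), the CCAAT box (CCAAT) and the E2F-like motif (TTTNNCGC), searched on both strands, so ATTGG is a CCAAT box on the other strand.
Ccnb2, chr9:70421505-70421804, minus strand: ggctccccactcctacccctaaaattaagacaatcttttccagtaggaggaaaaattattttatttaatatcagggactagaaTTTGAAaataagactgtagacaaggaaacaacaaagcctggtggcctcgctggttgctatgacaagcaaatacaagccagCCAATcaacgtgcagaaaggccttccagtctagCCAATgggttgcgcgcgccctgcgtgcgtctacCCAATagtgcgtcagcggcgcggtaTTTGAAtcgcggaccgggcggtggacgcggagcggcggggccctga
Cdc20, chr4:118437294-118437593, minus strand: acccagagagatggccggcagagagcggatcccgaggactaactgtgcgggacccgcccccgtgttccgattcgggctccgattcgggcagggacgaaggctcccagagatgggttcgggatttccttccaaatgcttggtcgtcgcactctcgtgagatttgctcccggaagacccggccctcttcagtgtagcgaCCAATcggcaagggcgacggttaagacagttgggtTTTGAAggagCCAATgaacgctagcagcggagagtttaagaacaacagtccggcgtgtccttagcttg
Plk1, chr7:122159185-122159484, plus strand: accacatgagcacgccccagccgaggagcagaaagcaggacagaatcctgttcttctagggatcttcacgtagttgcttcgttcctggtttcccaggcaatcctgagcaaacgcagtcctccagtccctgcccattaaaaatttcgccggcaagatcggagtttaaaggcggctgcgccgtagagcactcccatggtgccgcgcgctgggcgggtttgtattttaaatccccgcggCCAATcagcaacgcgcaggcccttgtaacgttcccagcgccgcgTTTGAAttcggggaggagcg
Mcm5, chr8:75109259-75109558, plus strand: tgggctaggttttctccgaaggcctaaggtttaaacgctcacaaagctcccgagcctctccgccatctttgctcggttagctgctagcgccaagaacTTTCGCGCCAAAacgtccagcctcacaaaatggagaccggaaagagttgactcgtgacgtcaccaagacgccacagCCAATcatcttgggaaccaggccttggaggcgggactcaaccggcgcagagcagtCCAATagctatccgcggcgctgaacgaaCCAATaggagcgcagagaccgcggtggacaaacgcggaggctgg
Mcm3, chr1:20820263-20820562, minus strand: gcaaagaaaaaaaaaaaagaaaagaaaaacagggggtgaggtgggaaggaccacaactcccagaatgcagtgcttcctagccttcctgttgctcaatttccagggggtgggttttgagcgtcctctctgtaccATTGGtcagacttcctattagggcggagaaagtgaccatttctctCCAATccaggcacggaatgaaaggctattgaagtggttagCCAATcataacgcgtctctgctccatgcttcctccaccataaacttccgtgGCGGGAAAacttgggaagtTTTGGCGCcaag
In Cdc20 the CHR match began 18 bases before the start, between CCAAT boxes that began 53 and 8 bases before it. In Mcm5 the E2F-like matches overlap each other on opposite strands. A gene was counted if any of its promoters of that length held a match. Over the gene lists, 23 of 35 mitosis genes with an entry held a CHR match (65.7%), against 20.2% of all 27025 genes with one. An E2F-like match was in 13 of 28 replication genes with an entry (46.4%), against 5.93% of all genes. CCAAT boxes were in 71.4% of the mitosis and 60.7% of the replication genes, against 41.1% of all genes. A match describes the letters in the window and does not show a bound site.

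The control library held 183 cycling cells of 2586 keratinocytes, the 2-week knockout 368 of 7689 and the 3-week knockout 437 of 5958. Library totals were 62967542, 97960352 and 118610125 UMIs. Cycling cells carried a median of 21235, 16133.5 and 18706 UMIs, against 11451, 7816 and 10334 in the other keratinocytes of the same libraries, and this gap bears on a rule that asks for detected genes. No barcode of a cycling cell recurred among those of another library, although 17 to 29 barcodes were shared between pairs of libraries over all cells. Scrublet, a doublet caller, marked 2, 4 and 14 of the cycling cells. Cycling cells of all 3 libraries expressed Xist, at 1740 to 2069 CPM (UMIs of a gene per 1000000 UMIs summed over the cells), and none held a UMI of the Y-linked Ddx3y.

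The cycle genes used to pick the cells were, by construction, far above the other keratinocytes and are given as a description. Mki67, the classic proliferation marker (chr7:135689784-135716450 in GENCODE on GRCm38), stood at 773, 669 and 792 CPM in the control, 2-week and 3-week cycling cells, against 7.98 to 9.42 CPM in the others. Top2a, the topoisomerase that untangles replicated DNA (chr11:98992947-99024199), stood at 827, 765 and 875 CPM, against 8.51 to 10.2 CPM. The 3-week library was highest of the 3 for all 8 genes, with the widest ratio to the control for Tk1 (thymidine kinase), at 40.5, 52.2 and 70.7 CPM. Ube2c, a ubiquitin-conjugating enzyme of mitotic exit, was at 355, 426 and 525 CPM. At the edge of the rule, 34, 57 and 50 cells had exactly 4 of the 8 genes and 23, 60 and 76 had 3. The summed mitosis list stood at 1645, 1768 and 2010 CPM in the former and at 1366, 1253 and 888 CPM in the latter.

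Piezo1 itself (chr8:122481698-122551329) was at 27.2, 17.2 and 13.2 CPM in the cycling cells, from 119, 124 and 120 UMIs. The ratio to control was 0.631 (0.487 to 0.818) at 2 weeks and 0.486 (0.374 to 0.632) at 3 weeks. Other keratinocytes stood at 38.3, 30.5 and 15.8 CPM. Both knockout libraries were thus below the control in both sets of cells, and Piezo1 transcripts remained in each. Barcodes below the keratin limit, which are not counted as keratinocytes, stood at 45.7, 29.2 and 24.2 CPM. The knockout libraries were thus lower there too, and whether the fall is specific to keratinocytes was not tested. The labels do not say which exons are floxed, and the kit counts transcript ends. The keratinocyte values therefore check the labels only if the deletion lowers the counted end of the transcript.

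Apart from the 8 genes of the rule, the cycling cells carried the full programme of division in every library. Of 2745 genes with at least 50 CPM in cycling or other keratinocytes in every library, 155 (5.65%) exceeded the other keratinocytes by 2-fold or more in all 3 libraries, and 11 (0.401%) fell short of them by as much. The rule fixes this contrast, so it is described without a test. All 40 mitosis genes, all 35 replication genes and all 13 genes of chromosome condensation in the lists were higher in the cycling cells of each library. Their median log2 ratios, with 5 CPM added to both sides as for every log2 ratio here, were 3.79, 3.76 and 4.09 for mitosis, 1.63, 1.42 and 1.46 for replication, and 2.40, 2.41 and 2.88 for condensation in the control, 2-week and 3-week libraries. The median over all 2745 genes was 0.07, 0.10 and 0.07.

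**Figure D1:**
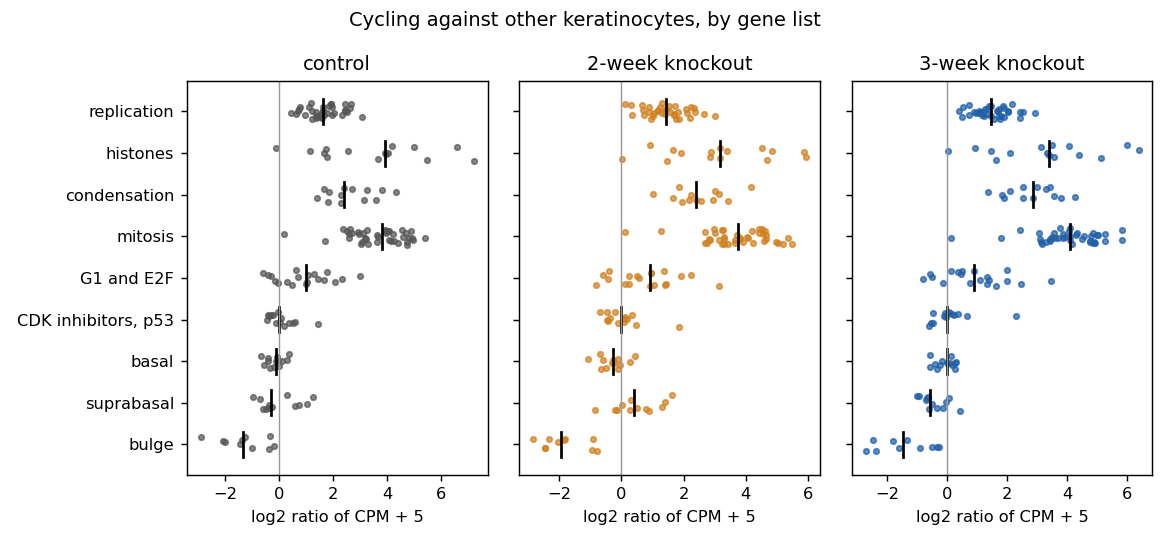
Log2 ratio of CPM plus 5 in cycling to other keratinocytes of the same library; each point is a gene of the list named on the vertical axis, and the black bar is the list's median. Mitosis, histone and condensation genes lie to the right of 0 in all 3 libraries apart from 1 histone gene, and bulge genes lie to the left.

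The 20 genes with the highest mean ratio to other keratinocytes were led by the histone genes Hist1h1b and Hist1h2ae, followed by genes of the spindle and cytokinesis. Hist1h1b stood at 1359, 678 and 1016 CPM, against 4.26 to 7.16 CPM in the others. Nusap1, a protein that bundles spindle microtubules, stood at 163, 254 and 335 CPM in cycling cells and at 0.513, 0.814 and 0.988 CPM in the others. Cenpf, of the kinetochore, reached 374, 391 and 552 CPM, against 4.04 to 4.80. Prc1, which crosslinks the midzone of the dividing spindle, was at 413, 413 and 543 CPM, and Anln, a scaffold of the contractile ring, at 435, 405 and 475 CPM. Others of the top 20 were Hmmr, Tpx2, Kif11, Aspm, Cenpe and Knl1 of the spindle and kinetochore, Racgap1 and Cdca8 of the midzone and its kinase complex, Cdca3, Cdc20, Ccna2 (cyclin A) and the kinase Pbk. Hist1h2ab and Hist1h3c were the other replication-dependent histone genes. Foxm1, a transcription factor that drives mitotic genes, was at 45.8, 48.8 and 58.2 CPM in cycling cells and at 0.756 to 1.41 CPM in the others.

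Of 19 G1 cyclin and E2F genes, 14 were higher and 3 lower in the cycling cells of every library, with median log2 ratios of 0.98, 0.93 and 0.90. Cdk4 stood at 89.7, 80.9 and 84 CPM in them and at 53.5 to 64.1 CPM in the others. Cyclin D2 (Ccnd2) and Myc were among the 3 lower ones. Ccnd2 was at 214, 170 and 222 CPM against 325, 305 and 391. Myc was at 148, 148 and 119 CPM against 196, 224 and 180. Cdkn1a, encoding the cyclin-dependent kinase inhibitor p21, remained high in cycling cells, at 1182, 1016 and 799 CPM against 1550, 1173 and 1116 in the others. Of the 14 inhibitors and p53 targets listed, 5 were higher and 5 lower in the cycling cells of all 3 libraries, and the rest were mixed.

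Of 13 basal genes, 7 were lower and 2 higher in the cycling cells of every library, with median log2 ratios of -0.11, -0.28 and -0.02, and hair follicle stem cell genes were further below. Krt14 stood at 7949, 7791 and 10257 CPM in cycling cells and at 6093, 5689 and 8256 CPM in the others, and Krt5 at 4422, 5039 and 5772 CPM. Both are in the rule, but Trp63, the master regulator of stratified epithelium, is not, and it was at 208, 172 and 221 CPM against 224, 202 and 223. All 10 genes of the bulge (the stem cell niche of the follicle) were lower in the cycling cells of every library. Cd34, a surface marker of bulge stem cells, was at 5.95, 17.6 and 2.87 CPM in cycling cells and at 76.8, 157 and 38.2 CPM in the others. Lgr5, a Wnt-pathway receptor of the lower bulge and germ, was at 8.24, 12.9 and 1.77 CPM against 48, 93.6 and 39.5. Other genes at the low end were S100a4, at 52.9, 98.9 and 33.6 CPM against 291, 661 and 179, and Id1, an inhibitor of differentiation factors and BMP target, at 124, 301 and 180 CPM against 286, 855 and 370. The YAP target Ccn2, the stress keratin Krt6a, the taurine transporter Slc6a6, Fgfr1, Cebpd, the Myc antagonist Mxd4, Zbtb16 and Kdm7a completed the 10 lowest. Genes of the growing follicle matrix were near 0: Shh had no UMI in any of the cycling cells, which allows up to 3 UMIs per library, and Lef1 stood at 0.994 to 1.60 CPM.

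Transcripts of other lineages were spread unevenly over the libraries. Cells with at least 2 UMIs of the T-cell, myeloid, fibroblast, endothelial, mural, melanocyte and Schwann markers numbered 62 of 183 in the control, 56 of 368 at 2 weeks and 90 of 437 at 3 weeks. Without them the 3-week median log2 ratios to control described below were 0.35 for mitosis genes and -0.42 for histones, in place of 0.45 and -0.50, and the count of genes at least 2-fold above the control at 3 weeks went from 33 to 52. The T-cell genes Cd3d and Trdc were at 0 in the control and 2-week cycling cells and at 0.442 and 0.331 CPM at 3 weeks, while Thy1, in the other keratinocytes too, at 22.5 CPM or more, made up most of that list's 50.01 to 58.4 CPM. Of the endothelial and mural list (11.4 to 31.4 CPM summed), Kdr was at 0 in every library. The fibroblast list summed to 119, 88.5 and 129 CPM, of which Sparc made 97.9, 84.2 and 117. The myeloid and Langerhans list summed to 47.8, 18 and 67.5 CPM, with none of its 6 genes at 0 in any library, and was led by Cd74 at 27.5, 10.8 and 41.4 CPM. Melanocyte and Schwann genes summed to 1.83 to 4.42 CPM, with Pmel and Sox10 at 0 in the control and Mlana at 0 at 3 weeks. Sebaceous genes summed to 387, 124 and 208 CPM, and in the control 1 cell held 78% of the Scd1 UMIs. Barcodes outside the keratinocyte definition that carried at least 4 of the 8 cycle genes numbered 43, 27 and 60 (1.77%, 1.24% and 1.49% of those barcodes).

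The share of keratinocytes in cycle was lower in the 2-week knockout than in the control and close to it at 3 weeks. It was 7.08% (6.12 to 8.13) in the control, 4.79% (4.32 to 5.29) at 2 weeks and 7.33% (6.69 to 8.03) at 3 weeks. The ratio to the control was 0.676 (0.565 to 0.812) at 2 weeks and 1.04 (0.870 to 1.24) at 3 weeks. Depth and the mix of cells moved with this share. When every cell was thinned to 5000 UMIs before the rule was applied, the shares were 5.19%, 4.06% and 6.55%, with ratios of 0.783 (0.631 to 0.977) and 1.26 (1.03 to 1.56). In these thinned cells, a bulge range was set at 3 or more UMIs of 7 bulge genes, outside the suprabasal range defined below. It made up 32.7% of control, 52.1% of 2-week and 24.4% of 3-week thinned keratinocytes.

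The share was also taken within ranges of cells. The ranges are cuts on thinned UMIs, not cell types: a suprabasal range of at least 25 UMIs of Krt1 and Krt10, the bulge range, an upper follicle range of at least 3 UMIs of Krt79 and Defb6, and all remaining cells. A cell that met several cuts was placed in the first of them in this order. In the remaining cells the thinned share was 7.55% (6.14 to 9.16) in the control, 8.44% (7.33 to 9.66) at 2 weeks and 9.07% (8.04 to 10.2) at 3 weeks, with a 2-week ratio of 1.12 (0.869 to 1.45). By the rule on all UMIs, in cells of at least 5000 UMIs, the 2-week ratio there was 0.970 (0.780 to 1.21). In the suprabasal range the thinned shares were 2.45%, 0.503% and 1.55%, from 4, 2 and 9 cells. In the bulge range the thinned shares were 2.90%, 1.73% and 3.65%, and the ratio of 2-week to control was 0.598 (0.363 to 1.02). By the rule on all UMIs, in cells of at least 5000 UMIs, that ratio was 0.574 (0.373 to 0.902), an interval wholly below the control. The suprabasal range gave 1.23 (0.503 to 3.42) by the same measure. In the upper follicle range the thinned shares were 2.21%, 2.06% and 5.36%, from 5, 8 and 26 cells. The bulge range thus kept the order seen over all cells, with 2 weeks lowest and 3 weeks highest. In the upper follicle range the 2-week ratio was 0.930 (0.268 to 3.61). By the rule on all UMIs, in cells of at least 5000 UMIs, the shares there were 4.87%, 4.88% and 6.39%, so 2 weeks was not lowest. Weighted to the control's mix of ranges, the thinned share was 5.12% at 2 weeks and 6.45% at 3 weeks, or 0.987 and 1.24 times the control. The unthinned share weighted in the same way gave 0.914 and 1.09. Many cells lay near these cuts: 43, 76 and 102 cycling cells had 2 or 3 bulge UMIs. The bulge genes were also lower in cycling cells themselves, so a cell's range is not independent of its cycling.

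**Figure D2:**
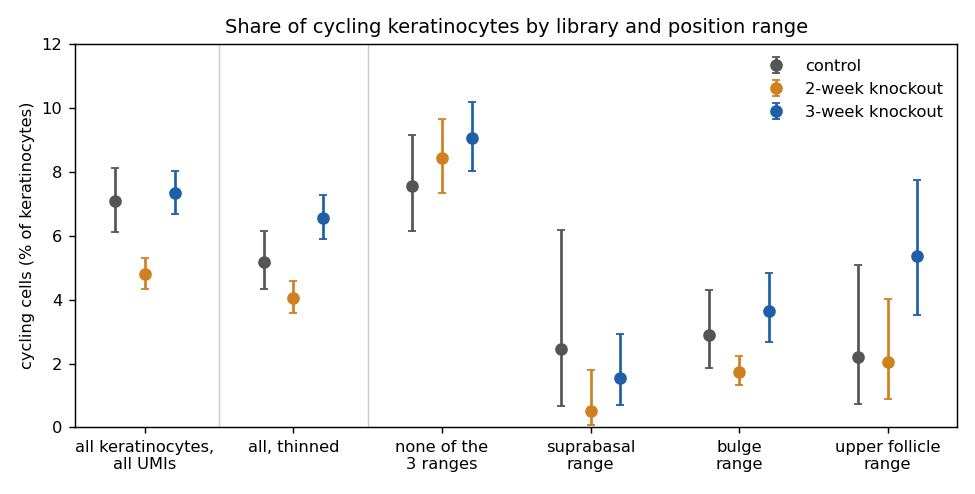
Cycling cells as a percentage of keratinocytes in each library, with exact 95% counting intervals: the rule on all UMIs at the left, then cells thinned to 5000 UMIs, whole and split by position range. The 2-week knockout lies lowest over all cells, at 4.79%, but between the other libraries among the cells in none of the 3 ranges, at 8.44%.

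Few cycling cells had a suprabasal profile, although at 2 weeks their share was close to that of all keratinocytes. The suprabasal range held 6.71%, 6.20% and 11.2% of keratinocytes with at least 5000 UMIs. Of the cycling cells among them, 7, 21 and 22 fell in it (3.87%, 6% and 5.12%). They were unusually deep, with medians of 81224, 76808 and 42376.5 UMIs against 18620.5, 15637 and 16408.5 for the other suprabasal-range keratinocytes, and only 4, 2 and 9 still met the rule after thinning to 5000 UMIs. Their median of mitosis-list UMIs was 4, 6 and 11 per 5000, against 25.5, 33 and 37 in cycling cells outside the 3 ranges. None of the control or 2-week ones and 4 of the 3-week ones were called doublets.

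Mitosis transcripts per cycling cell were lowest in the control and highest at 3 weeks, while replication transcripts were level. Per 5000 UMIs, cycling cells held a median of 23 mitosis-list UMIs in the control (middle range from the 25th to the 75th percentile 10 to 38), 29 at 2 weeks (12 to 43) and 34 at 3 weeks (18 to 50). Replication-list UMIs had medians of 7, 7 and 8. Other keratinocytes had medians of 0, 0 and 1 mitosis UMIs and of 2 replication UMIs in each library. Cells with more mitosis than replication UMIs are called the G2/M range here, which is a range of a score and not a phase call. It held 130 of 181 control cells, or 71.8% (64.7 to 78.2), 276 of 350 at 2 weeks, or 78.9% (74.2 to 83.0), and 340 of 429 at 3 weeks, or 79.3% (75.1 to 83.0). The differences from control were 7.03 percentage points (-0.899 to 15.3) and 7.43 (-0.215 to 15.5), and both intervals include 0. Within 0.1 of the cut of 0.5 lay 32, 46 and 53 cells.

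**Figure D3:**
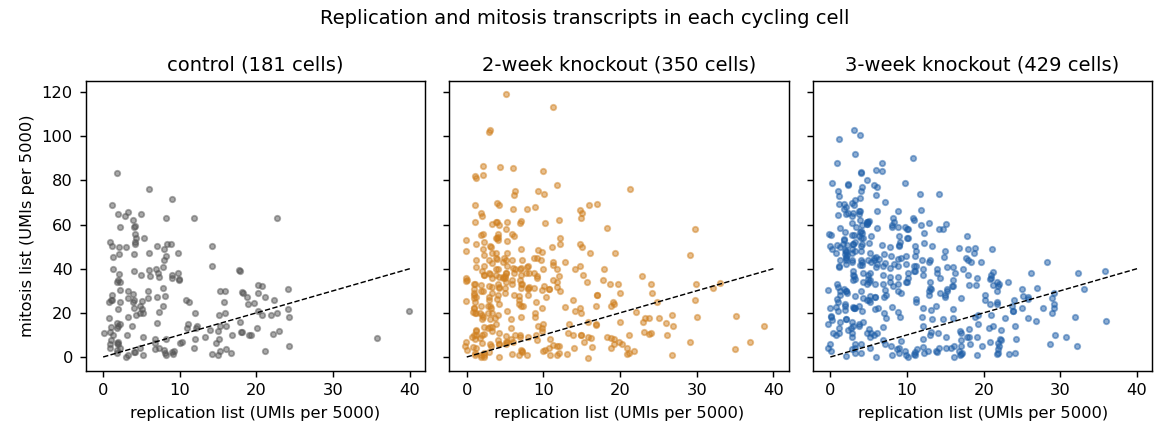
Replication-list against mitosis-list UMIs of each cycling cell, thinned to 5000 UMIs, in the 3 libraries; points are jittered, and the dashed line marks equal numbers. Cells above the line form the G2/M range, 130 of 181 in the control, 276 of 350 at 2 weeks and 340 of 429 at 3 weeks.

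Mitosis genes stood higher in the 3-week cycling cells than in the control, over nearly the whole list. Summed, the list was at 4879 CPM in the control, 5218 at 2 weeks and 6750 at 3 weeks. At 3 weeks, 34 of the 36 mitosis genes ranked (at least 50 UMIs over both libraries' cycling cells and 50 CPM in either) were above the control. The exceptions were Kif11 and Ect2, at 0.992 and 0.994 times the control. Of the 36, 13 were at least 1.5-fold and 3 at least 2-fold higher and none as far below, against 4.04% and 1.03% of all 3191 ranked genes higher by those folds. The median log2 ratio was 0.45 (0.33 to 0.56 over the alternatives run), against -0.07 for all ranked genes and 0.05 for the same 36 genes in other keratinocytes, where the whole list of 40 summed to 160 to 188 CPM. A gene under 50 CPM in the control, such as Plk1, was ranked only through its 3-week value and could not count as lower. The 3-week counts and median of ranked genes can therefore lean upward. Of all 40 listed genes, ranked or not, 38 were above the control at 3 weeks. At 2 weeks the median was 0.07 (0.04 to 0.33), with 20 of 29 ranked genes above the control and 1 at least 1.5-fold higher, against 3.62% of all 3150 ranked genes.

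Among the regulators of mitotic entry, Plk1 was at 24.3, 44.2 and 66.8 CPM, a ratio of 1.82 (1.46 to 2.29) at 2 weeks and 2.75 (2.24 to 3.42) at 3 weeks. Aurka, the Aurora kinase of the spindle poles, was at 24.9, 33.5 and 53.1 CPM, and its 3-week ratio was 2.13 (1.73 to 2.65). Aurkb, the Aurora kinase of the centromere and midzone, was at 38, 46 and 70.7 CPM. Each of these kinases was lowest in the control and highest at 3 weeks, and Plk1 had the highest ratio of the list in both comparisons. Cdk1, the kinase partner of cyclin B and a gene of the rule, was at 164, 163 and 228 CPM. Cyclin A2 (Ccna2) was at 79.2, 113 and 150 CPM, cyclin B1 (Ccnb1) at 97, 107 and 150, and cyclin B2 (Ccnb2) at 94.3, 134 and 157. The 3-week ratios of these cyclins were 1.90 (1.69 to 2.14), 1.54 (1.38 to 1.72) and 1.66 (1.49 to 1.86). Cdc20 was at 157, 179 and 275 CPM, with a 3-week ratio of 1.75 (1.61 to 1.91).

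Spindle and kinetochore genes were less uniform. Nusap1 was 2.05 times the control at 3 weeks (1.89 to 2.23), Cks2, a small partner of the cyclin-dependent kinases, 1.67 (1.57 to 1.77) at 307, 388 and 511 CPM, and the centromeric histone Cenpa 1.48 (1.36 to 1.60) at 189, 239 and 278 CPM. Large motor proteins were nearer 1: Kif11, the motor that pushes spindle poles apart, was at 187, 143 and 185 CPM, Kif15 at 89.9, 77.9 and 94.2, and Kif4 at 107, 89.5 and 112. Kif20a, a motor of the midzone, was at 39.4, 50 and 67.8 CPM, 1.72 times the control at 3 weeks (1.45 to 2.05). Thus motors were found on both sides of the list's median. Within the G2/M range alone, the summed mitosis list was at 5956, 6535 and 7815 CPM, and that range is itself picked on mitosis-list UMIs. In the S range (all other scored cells) it was at 1682, 1255 and 1726 CPM, with 3 weeks close to the control and 2 weeks lowest. In the G2/M range Plk1 was at 31.3, 56.4 and 78.5 CPM, Cdc20 at 204, 233 and 327, and Ccnb1 at 123, 138 and 175.

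**Figure D4:**
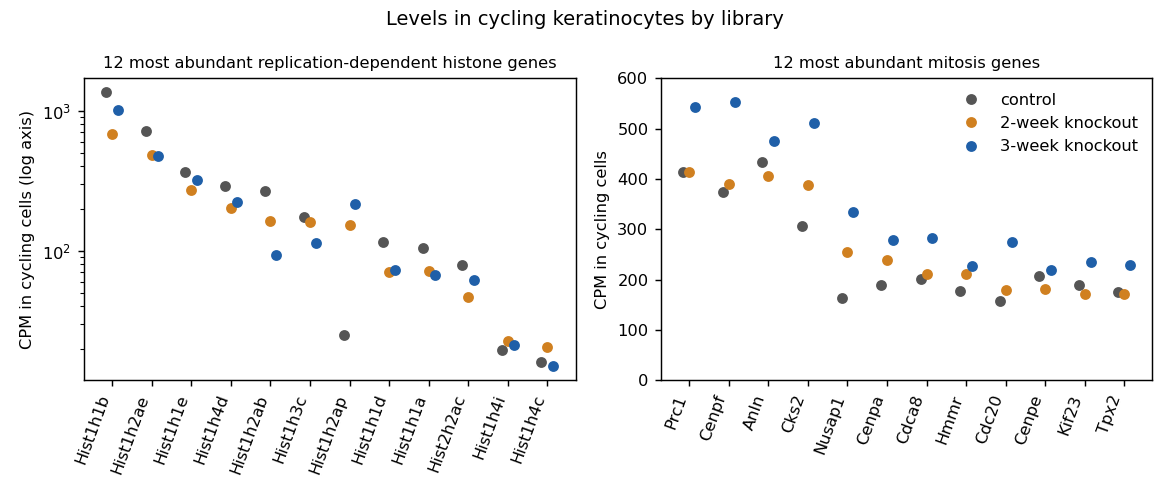
CPM in the cycling cells of each library for the 12 most abundant listed histone genes (left, log axis) and mitosis genes (right, linear axis from 0); each point is 1 library. Hist1h1b lies at 1359, 678 and 1016 CPM, Hist1h2ap, lowest in the control, at 24.9, 153 and 217, and Nusap1 runs from 163 to 254 and 335.

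Replication-dependent histone transcripts stood lower in both knockouts. These histones package newly copied DNA, and most of their messages end in a stem-loop without a poly(A) tail, so a poly(A) kit counts only part of them. Summed over the list they were at 3560 CPM in the control, 2364 at 2 weeks and 2723 at 3 weeks, against 53.1 to 82.7 CPM in other keratinocytes. Of the 10 ranked histone genes, 9 were below the control in each comparison and 1 above, with median log2 ratios of -0.54 and -0.50 (-0.66 to -0.32 and -0.62 to -0.42 over the alternatives run). In other keratinocytes the same genes had medians of 0.20 and 0.04, at a few CPM. For all ranked genes the median in cycling cells was -0.07 each time, so it too lay below the control. At 2 weeks 4 of the 10 were at least 1.5-fold lower, and 5 at 3 weeks, against 6.06% and 9.71% of all ranked genes.

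Hist1h1b, a linker histone, was at 1359, 678 and 1016 CPM, a ratio of 0.499 (0.480 to 0.518) at 2 weeks and 0.748 (0.724 to 0.773) at 3 weeks. Hist1h2ae was at 719, 480 and 477 CPM, and Hist1h2ab at 269, 163 and 92.7, the latter at 0.345 (0.316 to 0.377) of the control at 3 weeks. The linker histone genes Hist1h1e and Hist1h1d were at 366, 270 and 322 CPM and at 116, 70.5 and 73.1 CPM. Hist1h3b, named by its size of change rather than from the list, was at 133, 41.4 and 26.2 CPM. The single ranked gene above the control was Hist1h2ap, at 24.9, 153 and 217 CPM. Its ratios of 6.14 (5.04 to 7.54) and 8.70 (7.17 to 10.7) had counterparts of 19.2 and 13.6 in other keratinocytes. Those counterparts rest on only 0.0961 CPM in the control's other keratinocytes. With 5 CPM added, the log2 ratios were 2.40 and 2.89 in cycling cells and 0.43 and 0.31 in the others. Histone genes are near-identical copies, and reads can be split between them, so single members are uncertain. The sum over the list was lower within both ranges: 3943, 2664 and 2984 CPM in the G2/M range and 2437, 1469 and 1536 CPM in the S range.

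Replication genes lay mostly below the control at 2 weeks and on both sides of it at 3 weeks. The list summed to 1735, 1487 and 1794 CPM. At 2 weeks 13 of 16 ranked genes were below the control and 3 above. The median log2 ratio was -0.21 (-0.33 to -0.01 over the alternatives run), so the shift was near 0 under at least 1 alternative. It compares with -0.07 for all ranked genes and -0.05 for the same genes in other keratinocytes. The share of all ranked genes below the control was not counted, but their median was also below it. At 3 weeks 9 of 17 were below and 8 above, with a median of -0.04 against 0.20 in other keratinocytes. At 2 weeks, against 6.06% of all ranked genes, 2 were at least 1.5-fold lower, and none was as far above. These were the helicase subunits Mcm5, at 63.4, 33.2 and 53.7 CPM with a 2-week ratio of 0.525 (0.439 to 0.626), and Mcm4, at 64.8, 40.3 and 44.4 CPM with a ratio of 0.623 (0.527 to 0.736). The sliding clamp Pcna was at 222, 148 and 185 CPM, 0.668 (0.612 to 0.729) of the control at 2 weeks. The 3 above the control at 2 weeks were Dut, Slbp and Gmnn. Dut, which keeps uracil out of DNA, was at 117, 137 and 160 CPM, and Slbp, which binds the histone stem-loop, at 71.6, 86.4 and 99.9. Gmnn, the inhibitor of origin relicensing, was at 48.3, 58.7 and 80.7 CPM, 1.67 times the control at 3 weeks (1.43 to 1.96). In the S range, Pcna was at 326, 227 and 405 CPM and Mcm5 at 125, 56.7 and 134, so both were lowest at 2 weeks.

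Genes of chromosome condensation and chromatin structure were mixed, with HMG proteins and histone variants above the control and condensins below it at 2 weeks. Hmgb2, a chromatin protein enriched in dividing cells, was at 1458, 1670 and 1879 CPM, and the histone variant H2afz at 1184, 1277 and 1486. H2afx was at 62.7, 84.5 and 129 CPM, 2.05 times the control at 3 weeks (1.8 to 2.35). All 5 listed condensin subunits were below the control at 2 weeks, when the median log2 ratio of all ranked genes was -0.07. Smc4 stood at 620, 440 and 589 CPM, and Ncapd2 at 78.5, 54.9 and 73.5. The list's median log2 ratio was 0.15 at 2 weeks over 12 ranked genes and 0.24 at 3 weeks over 13, against 0.21 and 0.17 for the same genes in other keratinocytes.

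**Figure D5:**
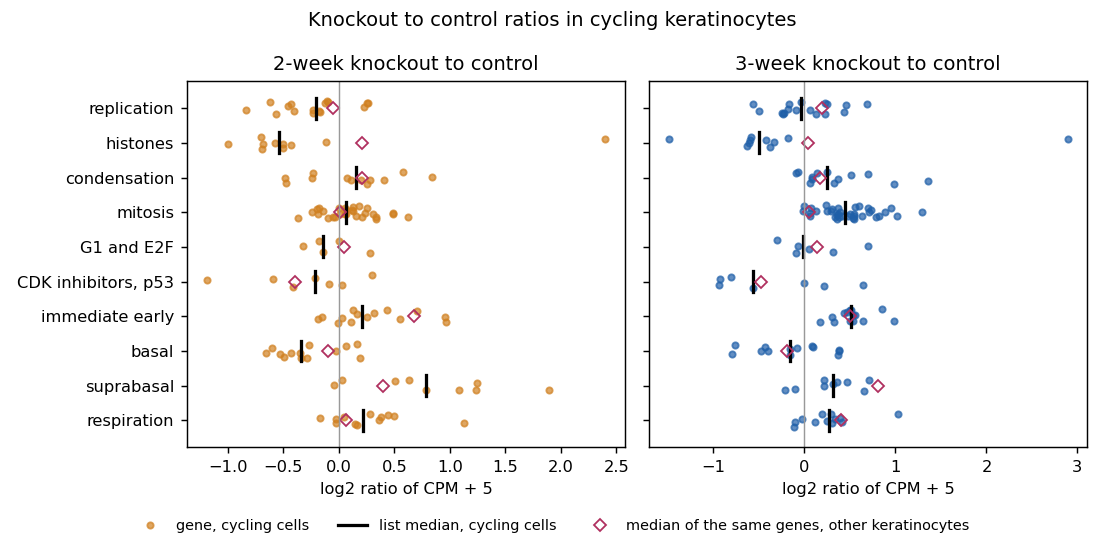
Log2 ratio of CPM plus 5 in the knockout to the control cycling cells; points are ranked genes of each list, black bars the list medians, and open diamonds the medians of the same genes in other keratinocytes. At 3 weeks the mitosis median (0.45) lies to the right of its diamond (0.05), and the histone medians (-0.54 and -0.50) lie to the left in both panels.

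Genes outside the cycle lists that were named for their size of change are described here, most of them beside their ratio in other keratinocytes. Of 3150 genes ranked at 2 weeks, 36 (1.14%) lay 2-fold or more above the control and 36 (1.14%) as far below it. Of 3191 at 3 weeks, 33 (1.03%) lay above and 73 (2.29%) below. Both comparisons use the same control cells. Thbs1, encoding the matrix protein thrombospondin 1, was at 2512, 925 and 1380 CPM, a 2-week ratio of 0.368 (0.357 to 0.380) against 0.412 in other keratinocytes. The neutrophil chemokine Cxcl1 was at 105, 23.3 and 37.3 CPM, with 2-week ratios of 0.222 (0.185 to 0.265) in cycling cells and 0.288 in the others. Ch25h, the cholesterol 25-hydroxylase, and the lipase gene Mgll were at 72.1, 25.2 and 38.5 CPM and at 93.4, 34.5 and 51.4 CPM, and 1 control cell held 54.7% of the Mgll UMIs. Bst2, Ifi27l2a and Ifi202b, which are interferon-inducible, were at 93.1, 31.9 and 23 CPM, at 797, 415 and 207, and at 1598, 672 and 449. The 3-week ratios of these interferon genes were 0.247, 0.260 and 0.281 in cycling cells and 0.297, 0.221 and 0.298 in the others.

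Itga2, the collagen-binding integrin subunit, was at 162, 68.7 and 42.1 CPM, and Cald1, an actin-binding protein, at 76.2, 26.2 and 19.7. Itga2 and Cald1 stood at 0.260 and 0.258 of the control in cycling cells and at 0.234 and 0.310 in the others. Egln3 and Ndufa4l2, both known targets of the hypoxia-inducible factors, were at 18.8, 32.4 and 56.5 CPM and at 89, 177 and 330 CPM. Their 3-week ratios were 3.01 (2.38 to 3.85) and 3.71 (3.33 to 4.13), against 1.60 and 3.1 in other keratinocytes. Tnfrsf19, a receptor of the TNF family, was at 38.2, 51.8 and 103 CPM, with a 3-week ratio of 2.70 against 2.71 in other keratinocytes.

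Several of the widest ratios fell on genes that may have near-identical copies elsewhere in the genome, which was not tested. Eno1 (14.2, 45.4 and 102 CPM), Hmgn2 (118, 214 and 309) and Plp2 (57.7, 117 and 194) are uncertain if so. Their 3-week ratios were 7.21, 2.63 and 3.36, against 6.48, 2.40 and 3.06 in other keratinocytes. Wdr89, at 728, 427 and 85.3 CPM, Phpt1, at 57.7, 42.1 and 13.7, and Adrm1, at 8.24, 26.5 and 51.6, had 3-week ratios of 0.117, 0.237 and 6.26. In other keratinocytes these were 0.114, 0.245 and 5.34.

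Of the 10 genes named for being above the control at 2 weeks, 7 had at least 24.3% of their 2-week UMIs in 1 cell. Wfdc21, a secreted WAP-domain protein, was at 72.8, 294 and 115 CPM, but 21 cells held every 2-week UMI and 1 of them held 35%. Lce1m, of the late cornified envelope, was at 1.14, 157 and 92.2 CPM, with 58.1% of the 2-week UMIs in 1 of 17 cells. Lce3c, Sprr2d, Sprr2h, Slpi and Csta1 were alike in this, with 24.3% to 62.8% of their 2-week UMIs in 1 cell. With the rule applied to thinned cells, the log2 ratios of Lce3c, Sprr2d, Sprr2h, Wfdc21, Slpi and Csta1 to the control turned from positive to negative (-0.58 to -3.18). Mt4, a metallothionein of stratified epithelium, and Fam71a were spread more widely, with 13.8% and 4.79% of their 2-week UMIs in 1 cell. They stood at 82.4, 320 and 138 CPM and at 15.1, 55 and 32.9 CPM. Their 2-week ratios were 3.88 and 3.64, against 1.87 and 3.38 in other keratinocytes. On the lower side, Elovl4 and Scd1, of fatty acid synthesis, rested on single control cells holding 84.5% and 78% of the UMIs. Plin2, a lipid droplet coat protein, was at 87, 24.4 and 68.4 CPM. Elovl4, Scd1 and Plin2 had 2-week ratios of 0.267, 0.222 and 0.280, against 0.772, 0.171 and 0.178 in other keratinocytes.

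Krt10, the main suprabasal keratin, was at 1539, 2385 and 1784 CPM in cycling cells and Krt1 at 346, 827 and 481, and 1 cell held 28.5%, 11.8% and 15.8% of the Krt10 and 34.4%, 19.4% and 15.7% of the Krt1 UMIs. Loricrin (Lor) was at 565, 990 and 861 CPM in cycling cells, with 68.3%, 31.3% and 30.1% in 1 cell, and at 56.7, 80.3 and 593 CPM in the others. Of the 9 ranked suprabasal genes, 8 were above the control at 2 weeks and 7 at 3 weeks. Their median log2 ratios were 0.79 and 0.32, against 0.40 and 0.81 in other keratinocytes. For all ranked genes the median was -0.07 each time.

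Immediate early genes, which respond within minutes to stimuli, were mostly above the control. All 14 were above the control at 3 weeks, with a median log2 ratio of 0.51 against 0.50 for the same genes in other keratinocytes, and 11 of 14 at 2 weeks, with 0.21 against 0.68. Fos was at 2210, 4316 and 4367 CPM in the cycling cells and Jun at 3269, 3653 and 4673. At 2 weeks the cycling cells therefore lay nearer to the control than the other keratinocytes did, a difference that was not tested. Of the ErbB ligands, Epgn was at 965, 480 and 760 CPM, 0.498 (0.476 to 0.521) of the control at 2 weeks and 0.433 in other keratinocytes. Areg was at 169, 160 and 78.3 CPM, 0.463 (0.417 to 0.514) at 3 weeks in cycling cells and 0.827 in the others. Gadd45a, a p53 and stress target, was at 205, 86.9 and 105 CPM, and Mdm2, the ubiquitin ligase of p53, at 148, 109 and 74.6. Their 3-week ratios were 0.513 (0.468 to 0.563) and 0.506 (0.453 to 0.564), against 0.479 and 0.684 in the other keratinocytes. Most of the 12 genes of the respiratory chain were above the control, 9 in each comparison. Their medians were 0.22 and 0.27, against 0.07 and 0.40 in other keratinocytes, so at 3 weeks the other keratinocytes lay further above. For all ranked genes the median log2 ratio in cycling cells was -0.07 in each comparison.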

How the data were processed

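Filtered barcode matrices of 3 mouse back skin libraries were used, 1 per group. The deposited values are UMI counts per gene and barcode, whole numbers with no normalization, made by the authors with the 10x single cell 3' v3.1 kit per the labels' protocols and with Cell Ranger 6.1.2 on mm10 per the submitters' processing notes. Neither the gene annotation's release nor how introns were counted is stated in them. Each table lists 32285 genes.

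UMIs were summed over the cycling and the other keratinocytes of each library and divided by their total (CPM). With 1 library per group no test was run. CPM ratios carry exact conditional intervals, shares Clopper-Pearson intervals and CPM exact Poisson intervals. Ranked genes had at least 50 UMIs over both libraries' cycling cells and 50 CPM in either, and log2 ratios add 5 CPM. Some genes were thus ranked only through the group where they were high. Named genes were the 20 highest and 10 lowest against other keratinocytes, the 10 highest and 10 lowest at least 2-fold in each knockout with an interval that leaves out 1, and up to 5 per list by level, without ribosomal, mitochondrial and unnamed gene models. A gene that this rule names is not reported here. Further genes of the lists were named after their values were seen (Kif4, Kif15, Kif20a, Aurka, Aurkb, Ccnb1, Ccnb2, Plk1, Cdc20, Kif11, Ect2, Gmnn, Mcm4, Mcm5, H2afx, Ncapd2 and single genes of the other lists). The members and lists were chosen with earlier results of these data known. On simulated counts, 99.5% and 100% of 200 genes changed were recovered at 2 weeks (2953 genes) and 3 weeks (2980). High recovery was built in, because the changed genes were well counted and changed by more than the 2-fold cut. The simulation also had no spread between cells, so it does not cover genes with few UMIs or UMIs held by single cells. Scrublet in scanpy 1.11.5, numpy 2.4.6, scipy 1.17.1 and pandas 2.3.3 were used under Python 3.11.15. Alternatives covered the rule, filters, doublets, thinning, cell weights, totals and folds.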

Additional observations from a re-analysis of the deposited data

How the results depend on the processing

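Depth, the mix of cells and single cells limit these results, since each group is 1 library and the self-test covers counting error only. No paired analysis was possible because each group has 1 library and the labels carry no replicate numbers. Of the main results under the alternatives, 85 values stayed within their limits and 17 moved, and of single genes and lists 597 stayed, 114 moved and 24 reversed. The ratio of the 3-week share to control was 1.26 with the rule on thinned cells, and the 2-week ratio was 0.914 at the control mix, an alternative added after the data were seen. Over the alternatives that change 1 choice it ran from 0.676 to 0.914 at 2 weeks and from 1.03 to 1.26 at 3 weeks, and with thinning and the control mix together it was 0.987 and 1.24. Genes at least 2-fold higher at 2 weeks, 36 as reported, were 23 by the mean over cells, 63 at 20 UMIs and 20 CPM and 56 with both ranges weighed equally. Lower ones, also 36, were 56 at 1% keratin, 64 with the rule on thinned cells (added later), 77 at 20 UMIs and 20 CPM and 55 with both ranges weighed equally. At 3 weeks 33 higher genes became 52 without cells carrying 2 UMIs of other lineages, 51 with members thinned and 57 at 20 UMIs and 20 CPM, and 73 lower ones became 149 at 20 UMIs and 20 CPM. At 1.5-fold the counts were 114 higher and 191 lower at 2 weeks and 129 and 310 at 3 weeks, as a lower fold must give more. Log2 ratios at 2 weeks reversed with keratin at 1% for Lce3c (-0.71), Sprr2d (-0.093), Sprr2h (-1.13), Wfdc21 (-2.62), Slpi (-0.58), Csta1 (-1.44), Scd1 (0.12) and Plin2 (0.0067). With the rule on thinned cells they reversed for Lce3c (-0.58), Sprr2d (-1.26), Sprr2h (-1.34), Wfdc21 (-3.18), Slpi (-1.21) and Csta1 (-1.93), and without the suprabasal range, an alternative added later, for Sprr2d (-0.016) and Sprr2h (-0.15). Elovl4 at 2 weeks became 0.38 with 5 of 8 genes, 0.72 at 10% mitochondrial UMIs, 1.21 without cells of other lineages and 0.52 without its highest cell in each library, and at 3 weeks 0.29, 0.66 and 0.062 under the last 3 of these. Scd1 at 2 weeks became 0.14 without cells of other lineages. The cause of these reversals was not tested, beyond the single cells left out.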
